A study of Mus musculus with 2148 samples.

Results

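Newborn medullary thymic epithelial cells (mTEC) were sorted by the amount of MHC class II on their surface, and those with much of it (mTEChi) are compared here with those with little (mTEClo) from the same experimental batches. The members were the cells labelled newborn WT mTEChi or newborn WT mTEClo, which gave 40, 33, 34, 32 and 32 mTEChi cells and 11, 30, 25, 29 and 29 mTEClo cells in experimental batches 16 to 20, together 14.9% of the 1980 thymic epithelial cells of the study. They were chosen by these labels and not by a measured value, though with earlier results of these data known. Both groups came from wild-type C57BL/6 mice aged 1 day, of unknown sex, with no treatment, transgene or deleted gene named. Both had been gated as DAPI-, CD45-, EpCAM+ and Ly51- cells, so that only surface MHC class II set them apart at the sort. Each of these batches held both sorts and, in addition, 22 to 37 cortical cells (cTEC, Ly51+), whose levels are given for orientation. The study also sorted adult WT and Aire-deficient cells, and 977 adult WT mTEC are used below for a single comparison. The adult mice were weeks old, and their ages differed within mTEClo and between the sorts. The range of these ages is given with that comparison. RamDA-seq was run on each cell, a full-length method primed along the whole of an RNA as well as at its poly(A) tail, which therefore covers unspliced and non-polyadenylated RNA along with mRNA.

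The medulla of the thymus is where developing T cells meet self antigens of other tissues. The medullary cells that display most MHC class II and the costimulatory ligand CD80 contain Aire, a nuclear regulator needed for the expression of many tissue-restricted antigens, and they mature under signals from RANK, a TNF receptor family member that acts through NF-κB. The fraction with little MHC class II is known to be mixed: it can hold immature cells as well as cells that have lost Aire and taken on features of peripheral tissues.

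Counts were summed over the cells of each sort in each batch, and the 5 sums of a sort are called its batches. A sum held 8265888 to 27742671 deduplicated reads. A mTEChi cell had a median of 548467 reads (203010 to 1221749) and a mTEClo cell 642575 (254682 to 1117617). Levels are given as CPM, reads per 1e6 reads on genes, which are not scaled for gene length and are compared only between sorts of the same gene. Differences are log2 values of mTEChi minus mTEClo from the quasi-likelihood test of edgeR with the batch as a block (n = 5 pairs). Their SE is the absolute difference divided by the square root of the F value of that test. It is a value of the model and not the SE of the 5 paired differences. Adjusted p is the Benjamini-Hochberg value over all genes tested. A gene was called higher or lower when its adjusted p was under 0.05 with a fold of 2 or more. The labels number no mice, so these p-values cover the spread between batches only, which may be technical. In a sum, a larger share of cells with a gene and more RNA of it per cell cannot be told apart, and values per cell are given where they bear on this.

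The depth of the sorts differed, so the number of genes in a cell was compared after each cell had been thinned to 200000 reads. At that depth the median mTEChi cell had 11731, 11760, 11595.5, 11701.5 and 11569.5 genes with a read in the 5 batches, and the median mTEClo cell 11871, 12105.5, 11826, 12083 and 11676. The mTEChi value was the lower one in 5 of 5 batches, at a mean difference of -240.8 ± 121.5 genes (mean ± SD, n = 5 pairs; exact sign-flip permutation test, two-sided p = 0.0625, the smallest that 5 pairs can give). The difference was -681.3 genes when a gene needed at least 5 reads and -275.3 genes without thinning (exact permutation p = 0.1875).

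The labels were checked against the 3 markers of the fraction. Aire (ENSMUSG00000000731, chr10:78030022-78043610, GRCm38) was measured at 1158, 1371, 1800.4, 1662 and 1589.6 CPM in mTEChi and 303.2, 16.9, 138.5, 87.6 and 36.6 CPM in mTEClo, in the order of batches 16 to 20. All 5 mTEChi batches lay above all 5 mTEClo batches, and the mTEClo value of batch 16 was the highest of its sort. The difference was 4.45 ± 0.71 (SE, n = 5; adjusted p = 0.00494). Cd80 (ENSMUSG00000075122, chr16:38455561-38496335), the ligand of CD28 on T cells, had 243.2, 279.4, 267.2, 248.6 and 255.8 CPM in mTEChi and 27.7, 4.37, 16.3, 26.03 and 18.7 CPM in mTEClo, again without overlap, and differed by 4.08 ± 0.45 (SE, n = 5; adjusted p = 0.00164). H2-Aa (ENSMUSG00000036594, chr17:34282744-34287823), the alpha chain of the class II molecule I-A, had 1505, 1816, 2229, 1942 and 1837 CPM in mTEChi and 688.9, 788.4, 971.9, 847.7 and 695.8 CPM in mTEClo and differed by 1.31 ± 0.09 (SE, n = 5; adjusted p = 0.000583). The 3 markers therefore went with the labels in each batch. Epcam and Enpep, which encode EpCAM and Ly51, were not called (0.64, adjusted p = 0.0102 and -0.097, adjusted p = 0.814), nor was Ptprc, the gene of CD45 (3.09, adjusted p = 0.251), which DESeq2 called higher (3.6002). Counted by cells, Enpep was not alike in the sorts. At 5 or more reads in cells thinned to 200000 reads it was found in 24.6% of mTEChi and 62.1% of mTEClo cells, 10 cells held 69.8% of its mTEChi reads, and limma on the mean log2(CPM + 1) of cells called it lower in mTEChi (-2.11).

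**Figure D1:**
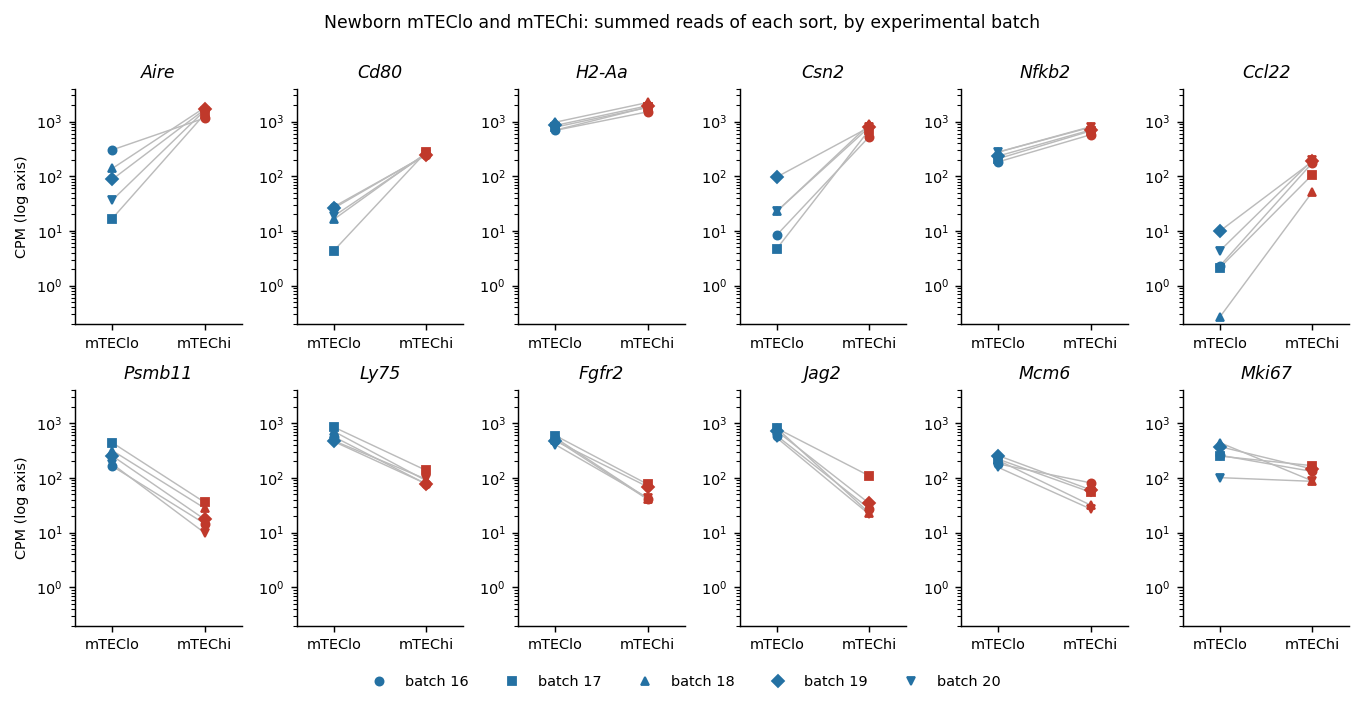
Levels of 12 genes in the newborn sorts, in CPM on a log axis. Each point is the sum of the cells of 1 sort in 1 experimental batch, and each line joins the mTEChi and mTEClo sums of a batch (batches 16 to 20). Aire, Cd80, H2-Aa, Csn2, Nfkb2 and Ccl22 lie higher in mTEChi in every batch. Psmb11, Ly75, Fgfr2, Jag2, Mcm6 and Mki67 lie lower in every batch, although the ranges of the sorts overlap for Mki67.

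The antibody of the gate was directed at the class II molecules I-A and I-E, so the differences of the I-A chains describe the gate. Other genes of the class II pathway and the genes of EpCAM, Ly51 and CD45 were listed with these chains. Among the 14 genes of this list, 9 were called higher and none lower, with a median difference of 1.36, where 18.1% of the 22312 genes tested were called higher, 10.8% lower, and the median of all genes was 0.06. Among the classical chains and the invariant chain, H2-Eb1 differed by 1.396 ± 0.09, Cd74, the invariant chain, by 1.05 ± 0.09 and H2-Ab1, the I-A beta chain, by 1.0004 ± 0.11. Cd74 was no longer called without batch 20 (0.99), and H2-Ab1 was no longer called without batch 19 (0.96) or 20 (0.91). Most peptide-loading genes of the DO and DM molecules differed by more, except H2-DMa. H2-Oa, the DO alpha chain, differed by 2.94 ± 0.13 (SE, n = 5; adjusted p = 0.0004403) and H2-DMb2, a DM beta chain, by 2.89 ± 0.19 (SE, n = 5; adjusted p = 0.000583). H2-Ob, the DO beta chain, differed by 4.53 ± 0.38, H2-Eb2 by 4.47 ± 0.63 and H2-DMb1 by 1.46 ± 0.12. H2-DMa, the DM alpha chain, and Ciita, the transactivator of class II genes, differed by 0.58, adjusted p = 0.0196 and 0.87, adjusted p = 0.01697, both under the fold limit.

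Class II genes share a compact promoter in which the Y box, an inverted CCAAT element bound by NF-Y, lies next to the start site. Its core TGATTGG was searched on both strands in RefSeq promoter windows of 300 bases (250 before and 50 after the start, GRCm38.p6). It was present in 7 of the 8 class II genes with a window, all 7 of them called higher, and in 7.82% of 32851 windows (9.0% of 27025 genes). The same letters were in 6 of 17 class I and antigen processing genes, in 7 of 16 S phase genes, 5 of them called lower, and in 8 of 17 G2/M genes. The gene without a match was H2-DMa. The 5 stretches printed here set genes with smaller differences (H2-Aa and H2-Eb1) beside genes with larger ones (H2-Oa, H2-DMb2 and H2-Eb2). Capitals mark the Y box core, and all are 5′ to 3′ on the strand of the gene.
H2-Aa: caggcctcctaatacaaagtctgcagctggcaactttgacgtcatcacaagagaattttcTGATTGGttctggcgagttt
H2-Eb1: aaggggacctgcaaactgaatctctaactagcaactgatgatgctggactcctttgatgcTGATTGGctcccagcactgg
H2-Eb2: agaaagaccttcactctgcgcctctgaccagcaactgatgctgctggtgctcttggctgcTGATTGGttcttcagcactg
H2-Oa: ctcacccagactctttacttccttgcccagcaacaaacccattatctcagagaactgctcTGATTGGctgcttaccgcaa
H2-DMb2: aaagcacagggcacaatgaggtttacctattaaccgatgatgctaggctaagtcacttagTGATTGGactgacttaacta
The stretches are chr17:34287854-34287933, minus strand (H2-Aa), chr17:34305746-34305825, plus strand (H2-Eb1), chr17:34325513-34325592, plus strand (H2-Eb2), chr17:34092274-34092353, plus strand (H2-Oa) and chr17:34145097-34145176, plus strand (H2-DMb2). The core began 45 to 92 bases before the start site in 4 of these genes and farther upstream in H2-Eb2. A match of letters is a description and not a measured site.

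Over all genes, 4033 of 22312 were called higher in mTEChi and 2414 lower, so that 62.56% of the calls were higher. With the mean log2(CPM + 1) of single cells in limma, which weighs each cell equally, 2401 were higher and 3801 lower, and 38.71% of the calls were higher. This alternative used neither thinned cells nor TMM scaling, and the median cell had fewer reads in mTEChi (548467) than in mTEClo (642575). The part of depth in its calls was not tested. Genes of either direction differed in how widely they were detected. A gene called higher had a read in a median of 49.7% of mTEChi cells, and 2028 of them (50.3%) were read in under 50% of the cells. A gene called lower had a read in a median of 84.7% of mTEClo cells, and 17.8% of them were read in under 50%. The median difference was 3.04 among the genes called higher and -1.68 among those called lower.

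Several of the genes with the largest folds in mTEChi are known from peripheral tissues, and some were carried by few cells. Sis, the sucrase-isomaltase of the gut, had 26.96, 69.4, 25.9, 47.1 and 16.5 CPM in mTEChi and 0.121, 0, 0, 1.38 and 0 CPM in mTEClo and differed by 8.18 ± 1.16 (SE, n = 5; adjusted p = 0.00333), with 94% of its mTEChi reads in 10 cells, and was not called by limma on cell means (0.997). Adgre1, which encodes the macrophage antigen F4/80, had 18.2, 12.6, 50.5, 74.4 and 60.5 CPM in mTEChi and 0.121, 0.09703, 0, 0.0988 and 0.202 CPM in mTEClo and differed by 8.56 ± 0.61 (SE, n = 5; adjusted p = 0.000656), with 94.4% of its reads in 10 cells. Genes named by fold had to have sorts that did not overlap, so the absence of overlap in these genes follows from the choice. Bcat1, a branched-chain aminotransferase, had 2409 reads in all mTEChi cells and 3 in all mTEClo cells, a CPM ratio of 664.03 (95% interval 226.95 to 3222, counting error only). Ces1f, a liver carboxylesterase, Chrna3, a nicotinic receptor subunit, Tnr, the brain matrix protein tenascin-R, and Fgf23, the phosphate hormone of bone, differed by 8.302, 8.09, 7.74 and 7.697. Il1rl1, the IL-33 receptor, Lrrc31, Pla2g4d and Erv3 were also among the 12 genes with the largest folds, at 8.49, 8.25, 8.06 and 7.67.

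The genes with the smallest p in mTEChi were named only where the sorts did not overlap. A small p also favours genes that vary little between batches. Dock10, a guanine nucleotide exchange factor, had 601.7, 500.7, 596.8, 654.4 and 573.9 CPM in mTEChi and 118.8, 76.8, 95.8, 100.5 and 88.5 CPM in mTEClo and differed by 2.71 ± 0.09 (SE, n = 5; adjusted p = 0.000323). It was read in every mTEChi cell and in 93.5% of mTEClo cells. Tdo2, the tryptophan dioxygenase of the liver, differed by 4.698 ± 0.14 but was not called by limma on cell means (0.954), Spp1, osteopontin, by 7.22 ± 0.22 and Lypd8, a secreted barrier protein of the colon, by 6.105 ± 0.202. Npc2, a lysosomal cholesterol carrier, Abcc1, an efflux pump, and C9orf72 differed less but as evenly, by 2.02 ± 0.07, 1.83 ± 0.07 and 2.57 ± 0.102.

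Aire, Fezf2 and Sirt1 were the genes called higher among 12 genes of Aire and its partners, and no gene of this list was called lower. The share called higher was 25.0%, against 18.1% of all genes tested. Fezf2, a transcription factor that acts on tissue-restricted antigens apart from Aire, had 263.9, 303.01, 413.6, 457.2 and 390.1 CPM in mTEChi and 74.3, 10.8, 57.1, 14.6 and 60.7 CPM in mTEClo and differed by 3.497 ± 0.56 (SE, n = 5; adjusted p = 0.00485). Sirt1, the deacetylase that acts on Aire, had 274.4, 409.3, 520.7, 513.4 and 467.99 CPM in mTEChi and 81.2, 41.9, 59.1, 73.3 and 47.4 CPM in mTEClo and differed by 2.96 ± 0.26 (SE, n = 5; adjusted p = 0.000942). Neither gene overlapped between the sorts. The general partners of Aire had like or lower levels in mTEChi: the helicase Ddx5 differed by 0.09, adjusted p = 0.315, the chromatin remodeller Chd4 by -0.77, adjusted p = 0.00264 and the topoisomerase Top2b by -0.85, adjusted p = 0.00106, the last 2 under the fold limit but lower in mTEChi in every batch. The median of the 12 genes was -0.08.

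The share of cells with a gene was measured in cells thinned to 200000 reads, with at least 5 reads as the limit. Aire was found in 94.7% of mTEChi cells (Wilson 95% interval 90.3 to 97.2), in 18.5% of mTEClo cells (12.7 to 26.3) and in 23.7% of cTEC (17.4 to 31.5). Its share in mTEClo was thus not above that in cTEC, a type that should lack it, whose cells had a median of 695844 reads before thinning. Cd80 was found in 93.6%, 15.3% and 5.76% of mTEChi, mTEClo and cTEC, and Fezf2 in 91.2%, 14.5% and 6.47%. For Cd80 the intervals of mTEClo (10.03 to 22.7) and cTEC (2.94 to 10.9) overlapped at their ends. The share in mTEChi was above that in mTEClo in 5 of 5 batches for Aire, Cd80, Fezf2, Csn2 and Spib, and below it in 5 of 5 for Psmb11, Prss16, Top2a and Pou2f3 (exact sign-flip permutation test, two-sided p = 0.0625 for each, the smallest possible, and 0.0972 after Benjamini-Hochberg adjustment over 14 genes). The size of a gap depended on the limit: for Aire the mean gap of the batches was 73.97 percentage points, but 19.76 with 1 read and 36.23 without thinning (exact permutation p = 0.125 for both), for Csn2 80.22 and 34.12 with 1 read, and for Pou2f3 -31.78 and -4.34 with 20 reads. Intervals cover counting error only.

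The Aire reads of mTEClo were not spread over the sort. The median cell had 1529.8 CPM in mTEChi and 8.67 in mTEClo, 10 mTEClo cells exceeded 100 CPM, and 10 mTEClo cells held 86.8% of the Aire reads of that sort. A single cell of batch 16, the batch with 11 mTEClo cells and the highest mTEClo level, held 34.2%. Of the cells with Aire, 96.3% in mTEChi and 52.2% in mTEClo (12 of 23) also had Cd80, and 93.2% and 21.7% (5 of 23) also had Csn2. These 23 mTEClo cells, also used below, are all those at 5 or more reads, a limit that 23.7% of cTEC reached as well. They may therefore include cells with little Aire.

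**Figure D2:**
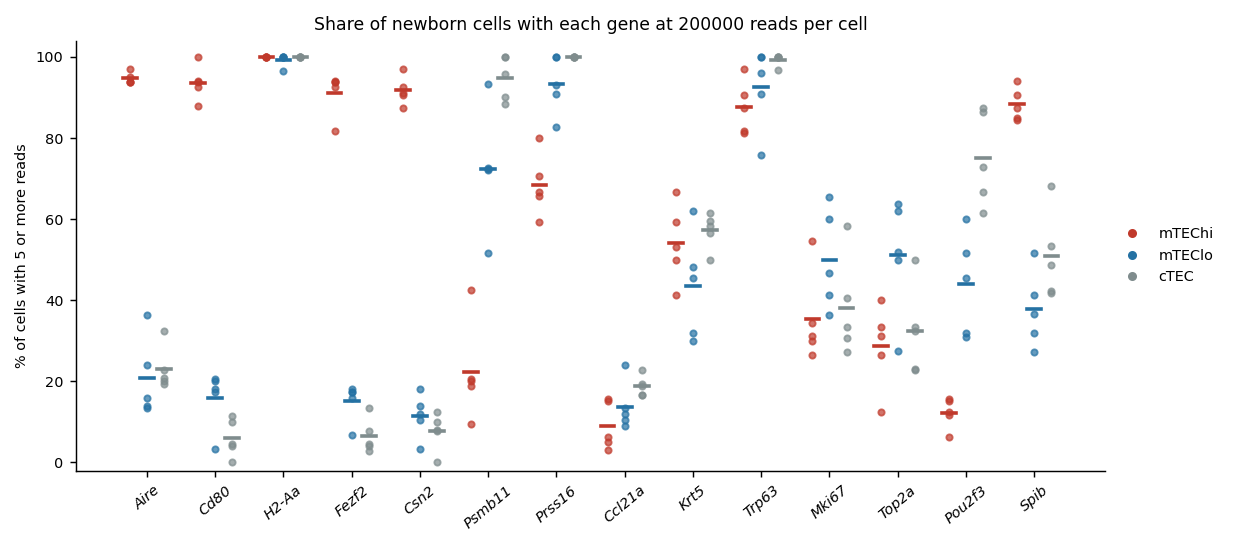
Percent of cells with at least 5 reads of a gene after thinning to 200000 reads per cell, for 14 genes. Dots are the experimental batches (n = 5 per sort) and bars are their means, for newborn mTEChi, mTEClo and cTEC. Aire, Cd80, Fezf2, Csn2 and Spib were found in more mTEChi than mTEClo cells in every batch, H2-Aa was found in nearly all cells of each sort, and Psmb11 and Prss16 were found in more mTEClo than mTEChi cells.

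Of 12 costimulatory and checkpoint genes, 8 were called higher in mTEChi and none lower, with a median difference of 2.97. Cd40, the receptor for CD40 ligand on T cells, had 245.7, 231.7, 202.02, 329.7 and 294.04 CPM in mTEChi and 46.2, 33.6, 42.8, 60.8 and 38.1 CPM in mTEClo, without overlap, and differed by 2.65 ± 0.14 (SE, n = 5; adjusted p = 0.0005197). Cd86, the partner of CD80 at CD28, reached 54.2 ± 29.6 CPM in mTEChi and 0.7701 ± 1.41 in mTEClo (mean ± SD, n = 5) and differed by 7.15. Icosl, the ligand of ICOS, Pdcd1lg2, which encodes PD-L2, and Cd70, the ligand of CD27, differed by 3.196 ± 0.502, 3.46 ± 0.34 and 3.62 ± 0.33. Cd274, which encodes PD-L1, was an exception at 231.9 ± 42.4 and 279.1 ± 67.6 CPM, and its sorts overlapped (-0.17, adjusted p = 0.565).

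Of 19 genes of RANK and NF-κB signalling, 13 were called higher, 2 lower, and the median difference was 1.41. The receptor RANK (Tnfrsf11a) had 705.7, 575.8, 634.3, 810.2 and 719.9 CPM in mTEChi and 123.6, 49.97, 147.7, 143.98 and 146.4 CPM in mTEClo and differed by 2.67 ± 0.21 (SE, n = 5; adjusted p = 0.000732). Its decoy receptor osteoprotegerin (Tnfrsf11b) had 356.96, 211.03, 387.2, 368.1 and 399.1 CPM in mTEChi and 10.4, 6.02, 24.9, 57.4 and 20.3 CPM in mTEClo and differed by 4.32 ± 0.41 (SE, n = 5; adjusted p = 0.00114). Both receptors were without overlap, and batch 17 was the lowest mTEChi batch for the decoy. Among the signal transducers, Nfkb2, the precursor of p52 in the non-canonical pathway, had 575.1, 675.4, 806.1, 702.3 and 787.3 CPM in mTEChi and 183.4, 209.7, 277.6, 234.4 and 275.98 CPM in mTEClo and differed by 1.68 ± 0.07 (SE, n = 5; adjusted p = 0.000361). Relb, its partner, differed by 1.44 ± 0.12, the adaptor Traf1 by 3.59 ± 0.45 and the ubiquitin ligase Birc3 by 1.58 ± 0.14. The inhibitor Nfkbia, a target of NF-κB itself, had 539.8, 637.8, 880.8, 759.2 and 709.8 CPM in mTEChi and 263.2, 260.8, 392.9, 332.2 and 287.5 CPM in mTEClo and differed by 1.29 ± 0.08 (SE, n = 5; adjusted p = 0.000569). The inhibitor Tnfaip3 differed by 1.05 ± 0.15, and was no longer called without batch 16 (0.99) or 17 (0.87).

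The 2 genes called lower were other receptors of the TNF family. The lymphotoxin beta receptor (Ltbr) had 52.3, 52.3, 37.7, 56.9 and 59.9 CPM in mTEChi and 151.7, 160.7, 138.8, 167.1 and 144.3 CPM in mTEClo and differed by -1.48 ± 0.12 (SE, n = 5; adjusted p = 0.000787). The TNF receptor Tnfrsf1a had 49.5, 57.2, 38.7, 52.2 and 53.3 CPM in mTEChi and 181.5, 213.9, 186.5, 209.97 and 148.6 CPM in mTEClo and differed by -1.82 ± 0.14 (SE, n = 5; adjusted p = 0.000698). For both, every mTEClo batch was above every mTEChi batch. Nfkb1, the precursor of p50, differed by -0.35, adjusted p = 0.0491, under the fold limit. A κB consensus, the letters GGGA and TTCC with any 2 bases between them, was searched on both strands of the same windows. It was present in 2 of the 16 genes of this list with a window, Nfkb2 and Nfkbia, both called higher, and in 1.47% of all windows. The match of Nfkbia (chr12:55492648-55492696, minus strand, opposite strand) is printed in capitals, since this inhibitor is the textbook target of the pathway.
Nfkbia: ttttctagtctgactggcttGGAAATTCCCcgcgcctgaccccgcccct

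Chemokines and cytokines of the medulla followed the same direction where they were called. Of 12 genes tested out of 14, 7 were called higher and none lower. Ccl22, a ligand of CCR4, had 176.3, 107.2, 51.7, 186.1 and 195.8 CPM in mTEChi and 2.299, 2.13, 0.268, 9.98 and 4.35 CPM in mTEClo and differed by 5.71 ± 0.45 (SE, n = 5; adjusted p = 0.000762). Ccl5 differed by 3.5999 ± 0.48 and Il23a, the p19 subunit of IL-23, by 2.49 ± 0.29, all 3 without overlap between the sorts. Cxcl9, a ligand of CXCR3, differed by 2.53 ± 0.58 and was no longer called without batch 17 (2.34). Cxcl10, a second ligand of CXCR3, and Il15ra differed by 0.56, adjusted p = 0.1105 and 0.46, adjusted p = 0.0221. Ccl21a, which marks a subset of immature medullary cells in the adult, was low in both sorts, at 7.55 ± 3.12 CPM in mTEChi and 13.1 ± 4.903 in mTEClo (-0.75, adjusted p = 0.184). Xcl1, which attracts dendritic cells, was at 1.96 ± 2.59 CPM in mTEChi and had 0 reads in mTEClo, was under the filter on low counts, and had 64.2% of its reads in a single cell of batch 17.

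Of 39 tissue-restricted antigens in the table, 31 passed the filter, 21 were called higher and none lower, and 16 had all mTEChi batches above all mTEClo batches, as had 16.4% of all genes tested. By limma on the mean log2(CPM + 1) of cells, 13 of the 31 were higher and 1 lower, and the median was 0.655, where the sums gave 4.84. Csn2, the milk protein beta-casein, was read in every mTEChi cell, with 530.1, 708.6, 889.8, 788.7 and 792.1 CPM in mTEChi and 8.47, 4.75, 22.7, 97.01 and 23.03 CPM in mTEClo. Its sorts did not overlap, and batch 19 was the highest mTEClo batch. The difference was 5.41 ± 0.65 (SE, n = 5; adjusted p = 0.00204). At 5 or more reads it was found in 91.8% of mTEChi cells, 10.48% of mTEClo cells and 7.91% of cTEC. Calca, the calcitonin gene of thyroid C cells, was at 145.3 ± 70.3 CPM in mTEChi and 1.56 ± 1.28 CPM in mTEClo (mean ± SD, n = 5), with batches at 82.5 to 226.8 and 0.395 to 3.54 CPM that did not overlap, and differed by 6.796 ± 0.45 (SE, n = 5; adjusted p = 0.00059999), although its median mTEChi cell had 10.1 CPM. Mbp, myelin basic protein, had 197.8, 246.1, 208.9, 191.2 and 342.04 CPM in mTEChi and 51.1, 30.9, 33.3, 61.7 and 78.4 CPM in mTEClo and differed by 2.36 ± 0.203 (SE, n = 5; adjusted p = 0.000929). Calca and Mbp were without overlap.

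The other antigens were read in fewer cells. Tg, thyroglobulin, had a read in 56.1% of mTEChi and 18.5% of mTEClo cells and differed by 6.03 ± 0.77. Sst, somatostatin, differed by 5.99 ± 0.83 and Zp3, an egg coat protein, by 6.31 ± 1.24, the latter not called by limma on cell means (0.767). Ins2, the insulin gene transcribed in the thymus, reached 7.69 ± 6.77 CPM in mTEChi and 0.123 ± 0.187 in mTEClo and differed by 6.1996 ± 1.04, with 96.5% of its mTEChi reads in 10 cells, and was not called by limma on cell means (0.37). Csn3, kappa-casein, was at 1.96 ± 1.45 CPM in mTEChi and had 0 reads in mTEClo, at least 50.7-fold higher (3 reads over the whole group as the floor). Of the 31 antigens tested, 29 had a positive difference. Muc5b, an airway mucin, was one of the other two, with 92.7, 12.004, 13.2, 77.5 and 16.2 CPM in mTEChi and 15.1, 5.53, 687.6, 27.4 and 1089 CPM in mTEClo, so the sorts overlapped (-0.52, adjusted p = 0.857), and a single mTEClo cell of batch 20 held 54.1% of the mTEClo reads.

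Counted cell by cell, the mean number of antigens differed between the sorts in every batch, while single cells of the sorts overlapped. Out of 39 antigens a mTEChi cell had 5.96 ± 0.37 at 5 or more reads (mean ± SD of 5 batch means) and a mTEClo cell 2.04 ± 0.52. No mTEChi cell was without an antigen, while 26 mTEClo cells (21.0%) had none. The lowest mTEChi batch mean was 5.53 and the highest mTEClo batch mean 2.69.

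**Figure D3:**
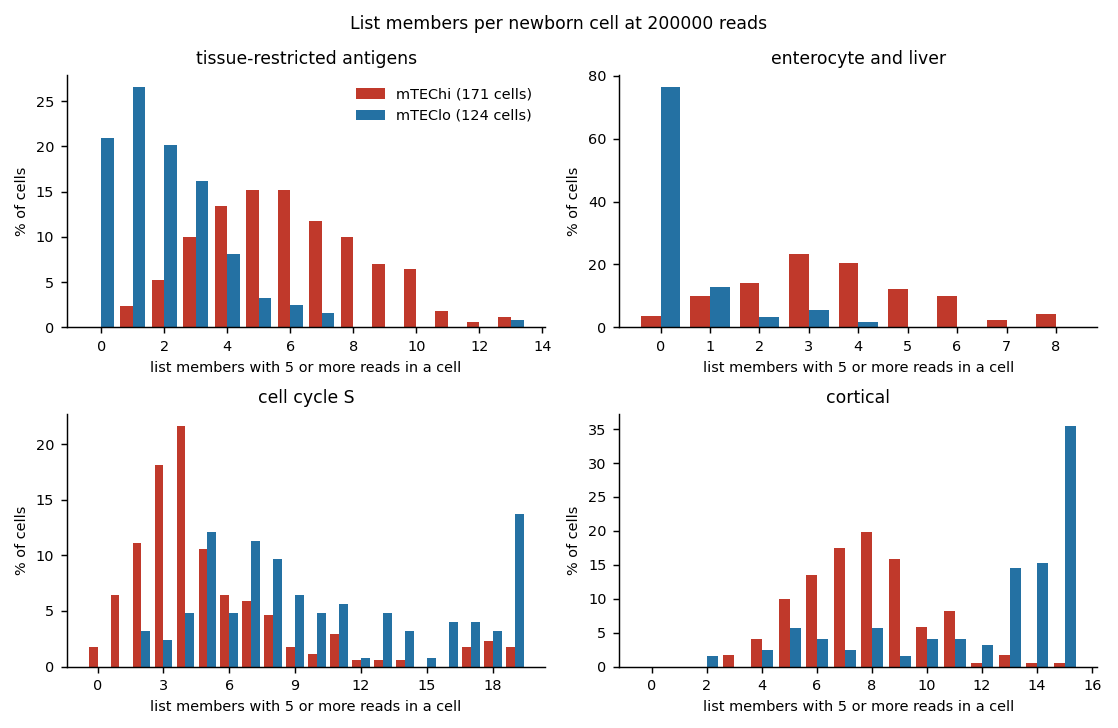
Number of genes of a list found in a cell at 5 or more reads after thinning to 200000 reads, as percent of the cells of newborn mTEChi and mTEClo, for tissue-restricted antigens (39 genes), enterocyte and liver genes (12), S phase genes (20) and cortical genes (16). The mTEChi cells lie to the right for the antigens and the enterocyte and liver genes and to the left for the S phase and cortical genes.

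Genes of peripheral cell types, which mTEC turn on in small groups of cells, were compared list by list. Enterocyte and liver genes were called higher in 9 of 12 and lower in none. Hnf4a and Hnf4g, nuclear receptors of liver and gut, differed by 5.95 ± 0.79 and 3.89 ± 0.34, the former not called by limma on cell means (0.54), and the intestinal lectin Reg3g by 4.07 ± 0.66. Apoa1, the main protein of HDL, reached 49.2 ± 18.7 CPM in mTEChi and 2.01 ± 2.49 in mTEClo and differed by 5.21 ± 0.64 (SE, n = 5; adjusted p = 0.002202). Cdhr5, a brush border cadherin, differed by 3.6004 ± 0.98 and was no longer called without batch 18 (2.97) or 20 (3.97). A mTEChi cell had 3.60 ± 0.10 of the 12 genes and a mTEClo cell 0.467 ± 0.24, and 6 mTEChi and 95 mTEClo cells (76.6%) had none.

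Muscle genes were called higher in 4 of 9 tested out of 12. Ttn, the giant sarcomere protein titin, had 1869.9, 910.7, 1359, 1428 and 880.7 CPM in mTEChi and 387.6, 89.7, 58.01, 208.8 and 144.8 CPM in mTEClo, without overlap, and differed by 3.18 ± 0.35 (SE, n = 5; adjusted p = 0.00161). Its median cell had 401.2 CPM in mTEChi and 9.64 in mTEClo. Tnnt3, the fast troponin T, and Mylpf, a fast myosin light chain, differed by 7.39 ± 1.13 and 4.65 ± 0.94. Myod1, the muscle regulator, was at 1.57 ± 3.12 CPM in mTEChi and had 0 reads in mTEClo, with 65.8% of its reads in a single cell of batch 17. Keratinocyte genes were called higher in 5 of 14, among them Krt77 (5.79 ± 0.61), the cornified layer protein Flg (4.84 ± 0.704) and the factors Grhl3 (3.32 ± 0.42) and Grhl1 (1.73 ± 0.31). Microfold genes were called higher in 6 of 10, with the factor Spib at 435.7, 498.8, 502.8, 539.5 and 543.9 CPM in mTEChi and 125.5, 77.4, 102.8, 226.9 and 177.4 CPM in mTEClo and a difference of 2.02 ± 0.21 (SE, n = 5; adjusted p = 0.00135). Marcksl1, Anxa5 and Gp2 of this list differed by 0.85, adjusted p = 0.00283, 0.36, adjusted p = 0.0197 and 1.82, adjusted p = 0.446.

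Neuroendocrine genes were called higher in 7 of 12 tested out of 14. The zinc finger factor Insm1 differed by 3.88 ± 0.83 and the synaptic protein Stxbp5l by 4.94 ± 0.87. Pcsk2, a prohormone convertase, differed by 5.12 ± 1.24 and was no longer called without batch 18 (4.96). Neurod4 was at 1.73 ± 1.04 CPM in mTEChi and had 0 reads in mTEClo, at least 42.7-fold higher. The granule protein Chga overlapped between the sorts (1.01, adjusted p = 0.502).

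None of 13 tuft, 8 ciliated and 4 parathyroid genes tested was called higher, while 1 tuft and 1 ciliated gene were called lower. Of all genes tested, 18.1% were called higher and 10.8% lower. The median differences of the 3 lists were -0.601, 0.71 and 1.005. By limma on the mean log2(CPM + 1) of cells 3 ciliated genes and 1 parathyroid gene were called higher and 1 ciliated gene lower. Pou2f3, the regulator of tuft cells, had 7.32, 17.6, 10.48, 25.6 and 19.1 CPM in mTEChi and 99.6, 43.7, 19.8, 62.3 and 76.2 CPM in mTEClo and differed by -1.73 ± 0.43 (SE, n = 5; adjusted p = 0.0219). Pou2f3 was lower in mTEChi in every batch, though the ranges of the sorts overlapped, and was no longer called without batch 20 (-1.69). It was found in 12.3% of mTEChi, 44.4% of mTEClo and 74.1% of cTEC cells. The effector genes of tuft cells did not pass the test: the channel Trpm5 differed by -1.39, adjusted p = 0.503, the actin regulator Avil by -1.303, adjusted p = 0.227 and the taste G protein Gnat3 by -5.01, adjusted p = 0.162. Summed over 14 tuft genes, mTEClo ranged from 71.6 to 915.7 CPM between batches and mTEChi from 139.4 to 297.6. Gcm2, the parathyroid regulator, had 0.613, 1.19, 28.5, 0.0556 and 0.663 CPM in mTEChi and 0.121, 0, 0, 0 and 113.03 CPM in mTEClo, and 1 mTEClo cell of batch 20 held 57.7% of the mTEClo reads. Foxj1, the ciliation factor, differed by 0.45, adjusted p = 0.175.

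**Figure D4:**
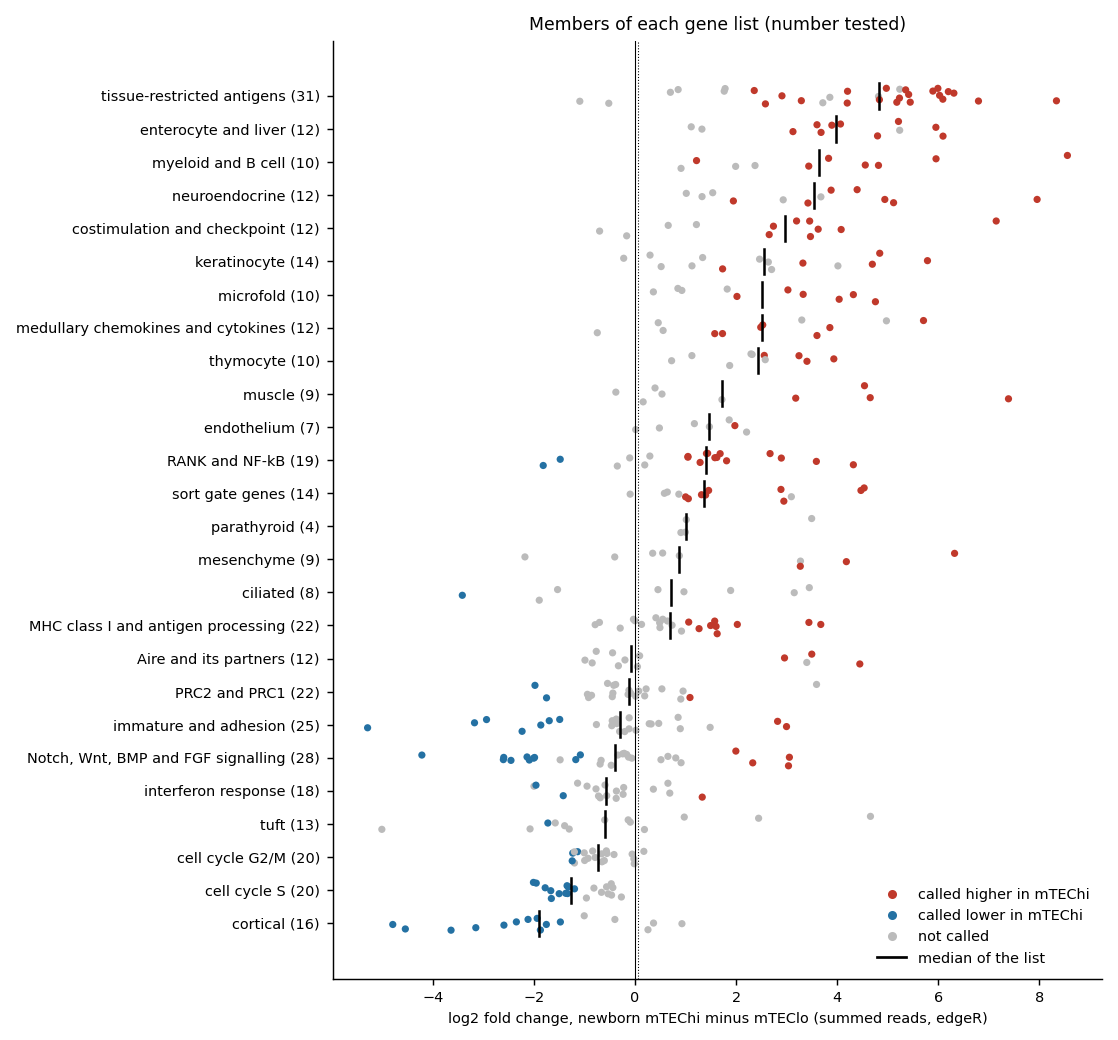
Log2 difference of mTEChi minus mTEClo for the members of each gene list that were tested. Each point is a gene, red where called higher, blue where called lower and grey otherwise, the black tick is the median of the list and the dotted line the median of all genes tested (0.06). Antigens, costimulatory genes and enterocyte and liver genes lie to the right, and cortical, S phase and Notch, Wnt, BMP and FGF genes hold most of the blue points.

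Genes of cortical epithelium were the clearest list on the mTEClo side, with 11 of 16 called lower in mTEChi, none higher and a median of -1.91. Psmb11, the thymoproteasome subunit, had 14.6, 35.8, 27.99, 17.5 and 9.89 CPM in mTEChi and 164.4, 441.97, 317.03, 253.9 and 180.1 CPM in mTEClo, without overlap, and differed by -3.64 ± 0.13 (SE, n = 5; adjusted p = 0.000323). The cTEC of the same batches had 949.97 ± 167.7 CPM (mean ± SD, n = 5), above every mTEClo batch. Prss16, the thymus-specific serine protease, had 50.1, 96.5, 92.5, 51.8 and 81.9 CPM in mTEChi and 541.9, 1081, 1143, 489.2 and 431.1 CPM in mTEClo, differed by -3.15 ± 0.22 (SE, n = 5; adjusted p = 0.000642) and reached 1965 ± 451.99 CPM in cTEC. Ly75, the endocytic receptor CD205, had 77.3, 137.1, 89.1, 78.03 and 94.5 CPM in mTEChi and 567.8, 851.1, 711.1, 464.2 and 479.3 CPM in mTEClo and differed by -2.595 ± 0.13 (SE, n = 5; adjusted p = 0.0005197), with 1349.6 ± 122.9 CPM in cTEC. For all 3 genes mTEClo lay between mTEChi and cTEC in mean level. These levels were not carried by a few cells: Psmb11 was found in 72.6% of mTEClo cells (64.1 to 79.7), 22.2% of mTEChi and 94.96% of cTEC. A mTEClo cell had 12.1 ± 1.48 of the 16 cortical genes and a mTEChi cell 7.72 ± 0.32.

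The growth factors and chemokines of the cortical list had the same direction where they were called. Cxcl12, which holds progenitors in the cortex, had 11.6, 91.3, 22.1, 15.5 and 25.1 CPM in mTEChi and 508.5, 832.8, 858.8, 553.8 and 419.5 CPM in mTEClo and differed by -4.55 ± 0.41 (SE, n = 5; adjusted p = 0.000994). Ackr4, a scavenger of chemokines, differed by -4.795 ± 0.34, Il7, the survival factor of thymocytes, by -1.87 ± 0.096, Kitl, the ligand of Kit, by -1.76 ± 0.39 and the protease Ctsl by -1.94 ± 0.22. Dll4, the Notch ligand of the cortex, differed by -1.48 ± 0.34 and was no longer called without batch 18 (-1.32). Foxn1, the regulator of thymic epithelium as a whole, overlapped between the sorts at 309.1 ± 48.3 and 442.4 ± 116.5 CPM (-0.399, adjusted p = 0.133). Of 23 mTEClo cells with Aire, 10 also had Psmb11 and 20 had Prss16, and of the mTEChi cells with Aire 21.6% had Psmb11 and 69.1% had Prss16.

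Of 25 genes of immature cells and of adhesion, 7 were called lower, 2 higher, and the median was -0.31. Fgfr2, the receptor for FGF7 and FGF10, had 41.8, 76.3, 40.5, 68.9 and 43.03 CPM in mTEChi and 543.4, 596.8, 504.5, 476.7 and 406.9 CPM in mTEClo, without overlap, and differed by -3.18 ± 0.17 (SE, n = 5; adjusted p = 0.000568). Trp63, the p63 factor of stratified epithelium, had 157.99, 206.8, 145.3, 179.6 and 120.6 CPM in mTEChi and 519.9, 607.4, 719.7, 536.8 and 416.1 CPM in mTEClo and differed by -1.698 ± 0.13 (SE, n = 5; adjusted p = 0.000727). It was found in 87.7% of mTEChi and 92.7% of mTEClo cells. With at least 20 reads as the limit, the share was lower in mTEChi by 32.99 percentage points (-32.99, exact sign-flip permutation p = 0.0625). Lamb3, a laminin-332 chain, differed by -2.94 ± 0.48 and the morphogen Bmp4 by -5.29 ± 1.06. The tight junction gene Cldn4 was called higher (2.82 ± 0.63), though not without batch 18 (2.64). The keratins did not pass: Krt5 differed by -0.31, adjusted p = 0.458, Krt8 by 0.02, adjusted p = 0.926, Krt17 by 0.28, adjusted p = 0.116 and Krt18 by -0.76, adjusted p = 0.0149.

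Genes of Notch, Wnt, BMP and FGF signalling were called lower in 10 of 28 and higher in 4, with a median of -0.41. These were 35.7% and 14.3% of the list, against 10.8% and 18.1% of all genes tested. Among ligands, Jag2 of the Notch pathway had 27.4, 109.1, 22.9, 34.2 and 21.6 CPM in mTEChi and 589.6, 805.6, 813.7, 718.5 and 540.5 CPM in mTEClo, without overlap and with batch 17 the highest mTEChi batch, and differed by -4.22 ± 0.34 (SE, n = 5; adjusted p = 0.000795). Wnt4 differed by -2.14 ± 0.29, whereas Bmp2 was higher by 3.04 ± 0.34. Among receptors, Bmpr1a differed by -1.17 ± 0.11, while Notch1 and Notch2 differed by -0.13, adjusted p = 0.7103 and -0.17, adjusted p = 0.291. Among targets and feedback genes, the FGF inhibitor Spry1, the FGF target Etv4 and the BMP target Id1 differed by -2.61 ± 0.28, -2.46 ± 0.51 and -2.599 ± 0.43. Tcf7, a Wnt effector better known from T cells, was higher by 3.05 ± 0.43, and the Wnt effector Ctnnb1 differed by -0.22, adjusted p = 0.164.

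The largest folds on the mTEClo side belonged to genes of widely differing function. Fat3, an atypical cadherin, had 4.47, 139.8, 4.62, 1.72 and 3.26 CPM in mTEChi and 427.7, 557.05, 716.2, 510.03 and 440.2 CPM in mTEClo and differed by -6.37 ± 1.07 (SE, n = 5; adjusted p = 0.00577), and 1 mTEChi cell of batch 17 held 48.97% of the mTEChi reads. It exceeded 100 CPM in 2 mTEChi and 88 mTEClo cells. Scn1a, a neuronal sodium channel, had 0.685, 2.05, 1.24, 0.278 and 0.552 CPM in mTEChi and 108.4, 77.6, 82.8, 35.5 and 45.4 CPM in mTEClo and differed by -6.25 ± 0.36 (SE, n = 5; adjusted p = 0.000568). The endothelin receptor Ednrb, the zinc finger proteins Zfp648 and Bnc1, the chromatin protein Hmga2 and the adhesion protein Kirrel differed by -5.04, -5.75, -5.27, -5.196 and -5.29. Sobp, Adamts19, Abca8b and Tmem169 differed by -5.38, -5.31, -5.303 and -5.02. The collagen Col8a2 differed by -5.04 and was no longer called without batch 18 (-4.396) or 20 (-4.67). By the smallest p, Psmb11 was followed by the syntrophin Sntb2 (-2.92 ± 0.11), the guanylate cyclase subunit Gucy1a2 (-3.42 ± 0.14), the Golgi mannosidase Man2a1 (-2.74 ± 0.11), Fam49b (-2.36 ± 0.11), the factor Nfia (-1.804 ± 0.08), Frmd4a (-2.36 ± 0.11) and Pcgf2 (-1.98 ± 0.098).

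Subunits of the Polycomb complexes, which write and read repressive marks on histones H3 and H2A, were called higher in 1 of 22 and lower in 2, with a median of -0.13. These were 4.55% and 9.09% of the list, against 18.1% and 10.8% of all genes tested. At any fold, 12 of 22 had an adjusted p under 0.05, as had 9267 of all 22312 genes tested. Jarid2, an accessory subunit of PRC2, had 343.6, 391.1, 334.1, 405.1 and 365.5 CPM in mTEChi and 259.02, 160.6, 148.9, 180.1 and 188.7 CPM in mTEClo, without overlap, and differed by 1.09 ± 0.14 (SE, n = 5; adjusted p = 0.00231). The PRC1 subunits Pcgf2 and Cbx2 were lower, Pcgf2 at 27.2 ± 5.397 against 114.1 ± 20.2 CPM and Cbx2 by -1.75 ± 0.16. Aebp2, another PRC2 accessory, and the H3K27 demethylase Kdm6a lay just under the fold limit (0.95, adjusted p = 0.00264 and 0.905, adjusted p = 0.00113). Interferon response genes were called higher in 1 of 18 (5.56%) and lower in 2 (11.1%), with a median of -0.58. By limma on the mean log2(CPM + 1) of cells, however, none was higher and 13 were lower, with a median of -1.15. Ifi44 was lower by -1.96 ± 0.28. Mx1 was higher by 1.33 ± 0.31, though not called without batch 16 (0.98), and Irf1, Irf8 and Oasl2 differed by -0.95, adjusted p = 0.0112, 0.69, adjusted p = 0.00758 and -0.59, adjusted p = 0.0591.

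S phase genes were lower in mTEChi: 11 of 20 were called lower, none higher, and the median was -1.26. Mcm6, a subunit of the replicative helicase, had 81.2, 54.8, 31.7, 60.5 and 27.01 CPM in mTEChi and 180.9, 220.1, 209.3, 255.9 and 155.8 CPM in mTEClo, without overlap, and differed by -2.01 ± 0.24 (SE, n = 5; adjusted p = 0.00196). Mcm5 and Mcm2 of the same helicase differed by -1.66 ± 0.31 and -1.78 ± 0.28, the licensing factor Cdc6 by -1.67 ± 0.24 and Dtl, which directs the removal of Cdt1, by -1.96 ± 0.26. Uhrf1, which maintains DNA methylation, differed by -0.27, adjusted p = 0.222. A mTEChi cell had 5.25 ± 0.55 of the 20 genes at 5 or more reads and a mTEClo cell 10.2 ± 1.12.

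The letters TTTGGCGC, an E2F consensus, were present on either strand of the promoter window in 4 of the 16 S phase genes with a window, Mcm3, Mcm5, Mcm6 and Dtl, all called lower, and in 0.514% of all windows. The stretches of Mcm5, Mcm6 and Dtl are shown because they carry the letters in genes described here. Capitals mark the match, which is on the opposite strand in Mcm5. For Mcm6 the printed match begins 110 bases before the start site, and a further match, not printed, begins 47 bases before it.
Mcm5: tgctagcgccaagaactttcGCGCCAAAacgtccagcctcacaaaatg
Mcm6: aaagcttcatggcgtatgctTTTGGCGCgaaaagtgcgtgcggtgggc
Dtl: atcagaaagcgtgacgtcagTTTGGCGC
They lie at chr8:75109340-75109387, plus strand, chr1:128359788-128359835, minus strand and chr1:191575545-191575572, minus strand (GRCm38.p6). In the G2/M list, none of 17 genes with a window held these letters.

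G2/M genes were called lower in 3 of 20 and higher in none, with a median of -0.73. Mki67, the proliferation antigen, had 131.3, 167.7, 88.2, 145.7 and 86.8 CPM in mTEChi and 260.4, 250.8, 442.3, 373.9 and 101.4 CPM in mTEClo. It was lower in mTEChi in every batch, but the ranges overlapped, since the mTEClo value of batch 20 lay below 3 mTEChi values. It differed by -0.998, adjusted p = 0.0436, under the fold limit. Top2a, the mitotic topoisomerase, differed by -1.23 ± 0.36 (SE, n = 5; adjusted p = 0.0368) and was no longer called without batch 17 (-1.36), 18 (-0.99), 19 (-1.01) or 20 (-1.31). Without batch 18, and likewise without batch 19, no G2/M gene was called. Cdk1 differed by -0.42, adjusted p = 0.375. Mki67 was found in 35.1% of mTEChi and 51.6% of mTEClo cells (exact permutation p = 0.25). Of the cells with Aire, 34.6% in mTEChi and 39.1% in mTEClo (9 of 23) had Mki67.

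MHC class I and antigen processing genes were called higher in 9 of 22 and lower in none, with a median of 0.69. B2m, the light chain of class I, had 976.4, 1082, 1189.6, 1192 and 1198 CPM in mTEChi and 409.4, 291.7, 403.99, 504.2 and 564.4 CPM in mTEClo, without overlap, and differed by 1.495 ± 0.12 (SE, n = 5; adjusted p = 0.000762). The heavy chains H2-K1 and H2-D1 differed by 1.06 ± 0.08 and 1.27 ± 0.11 and the immunoproteasome subunit Psmb8 by 1.62 ± 0.12. Among endosomal enzymes, Ctss, which trims the invariant chain, had 146.4, 186.6, 185.9, 225.5 and 190.6 CPM in mTEChi and 15.4, 8.199, 11.3, 19.7 and 30.8 CPM in mTEClo and differed by 3.68 ± 0.28 (SE, n = 5; adjusted p = 0.0006998). Ctsh differed by 3.44 ± 0.31 and Ifi30, the lysosomal thiol reductase GILT, by 2.02 ± 0.14. Other lysosomal proteases did not follow: Ctsb and Ctsd differed by 0.49, adjusted p = 0.0384 and 0.55, adjusted p = 0.0446, the asparaginyl endopeptidase Lgmn by -0.79, adjusted p = 0.00163, all under the fold limit, and Ctsl of the cortical list was called lower.

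Markers of cells outside the epithelium were measured as whole lists, and several were higher in mTEChi. The 12 myeloid and B cell genes summed to 343.5 to 689.3 CPM in the mTEChi batches and 29.5 to 102.05 in the mTEClo batches, with 7 of 10 tested called higher. The macrophage lysozyme Lyz2 differed by 4.82 ± 0.63 and was at 93.2 CPM in the median mTEChi cell and 1.55 in the median mTEClo cell, while Csf1r and Fcer1g differed by 3.44 ± 0.499 and 5.96 ± 0.55. The 10 mesenchymal genes summed to 352.1 to 872.0 CPM in mTEChi and 72.95 to 323.7 in mTEClo, with 3 of 9 called higher. Col1a1, type I collagen, differed by 6.32 ± 0.62, with 87.6% of its mTEChi reads in 10 cells. The 12 thymocyte genes summed to 39.5 to 194.8 CPM and 11.4 to 90.2 CPM, with 4 of 10 called higher, Cd4 among them (3.402 ± 0.55), whereas Rag1 and Lck did not pass (2.29, adjusted p = 0.0718 and 0.72, adjusted p = 0.0823).

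The 8 endothelial genes summed to 24.3 to 59.3 CPM in mTEChi and 13.7 to 94 in mTEClo. Of 7 tested, 1 was called higher (14.3%, against 18.1% of all genes tested). The 6 erythroid genes summed to 23.4 to 66.9 and 6.18 to 15.6 CPM, with the only gene tested, Alas2, higher by 1.53 ± 0.31. At 5 or more reads, 10 mTEChi and 2 mTEClo cells had 3 or more thymocyte genes. Without these 12 cells, 4007 genes were called higher and 2384 lower. The part of other cells in the differences was otherwise not tested.

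The same difference between the sorts was measured in adult WT mice and compared with the newborn one. The adult cells came from 9 experimental batches of mTEChi and 5 of mTEClo, of mice aged 4 to 8 weeks. No adult batch held both sorts, and the adult sorts came from mice of different ages. Sort therefore cannot be told apart from batch or mouse age there, and the newborn pairs were not blocked in this fit. The newborn difference was more positive than the adult one in 871 of 30278 genes (2.88%) and more negative in 918 (3.03%), together 5.91%, at an adjusted p under 0.05 and at least 1 on the log2 scale. For Aire and Cd80 it was not called different (-1.26 ± 0.64 (SE; adjusted p = 0.246) and 0.41 ± 0.37 (SE; adjusted p = 0.549)), nor for H2-Aa and Csn2 (0.22 ± 0.28 (SE; adjusted p = 0.6904) and 0.09 ± 0.74 (SE; adjusted p = 0.962)).

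Proliferation genes set the ages apart. All 20 G2/M genes had a more negative difference in newborns, with a median of -0.95 in newborns and 4.22 in adults. In newborns Mki67 was at 123.95 ± 35.7 CPM in mTEChi and 285.8 ± 130.5 in mTEClo, in adults at 140.9 ± 90 and 5.95 ± 4.21 CPM (mean ± SD of batches), and the difference of differences was -5.64 ± 0.86 (SE; adjusted p = 0.000293). The mTEClo batches ranged from 101.4 to 442.3 CPM in newborns and from 0.341 to 11.1 CPM in adults, while the mTEChi batches overlapped between the ages (86.8 to 167.7 and 31.4 to 329.7 CPM). Top2a, Cdk1 and Uhrf1 gave -5.96, -5.59 and -4.13. Of the S phase genes 16 of 20 were more negative in newborns, with medians of -1.25 and 1.27, among them Mcm5 (-2.82), Mcm6 (-2.37) and Dtl (-5.87). The DNA polymerase Pole (-6.09) and the recombination gene Rad54b (-3.904) were among the 6 genes with the smallest p.

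Cortical genes differed in part, with 7 of 16 more negative in newborns and medians of -1.96 in newborns and -0.19 in adults. The adult median lay between calls of both directions, since 7 of the 16 were called lower in adult mTEChi and 5 higher. Psmb11 was at 8.23 ± 6.76 CPM in adult mTEChi and 9.602 ± 6.54 in adult mTEClo, so that its difference of -3.65 in newborns stood against -0.32 in adults (-3.33 ± 0.86 (SE; adjusted p = 0.0198)). Prss16 and Ly75 gave -3.21 and -3.37. The mTEClo batches of Psmb11 ranged from 164.4 to 441.97 CPM in newborns and from 0.667 to 16.8 CPM in adults. The cadherin Cdh4, the quinone reductase Nqo1 and the scaffold Baiap2 were also more negative in newborns (-4.42, -4.24 and -2.04).

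In the other direction, Igf1, an insulin-like growth factor, was at 124.95 ± 38.1 and 0.876 ± 0.282 CPM in mTEChi and mTEClo of newborns and at 280.3 ± 98.6 and 37.9 ± 18.1 CPM in those of adults (4.46 ± 0.48 (SE; adjusted p = 2.25e-05)). By limma on cell means this was 0.106 and not called. Gpx3, a secreted glutathione peroxidase, was higher in mTEChi of newborns (361.7 ± 85.2 against 31.7 ± 21.3 CPM) and had the opposite order of means in adults (152.5 ± 36.7 against 343.6 ± 189.7 CPM), with 4.83 ± 0.56 (SE; adjusted p = 2.36e-05). Tnfaip3 did the same (2.32 ± 0.27 (SE; adjusted p = 2.36e-05)), and Cadps gave 2.77, Pam 1.15 and Cyld 1.02, the last not called without batch 19 (0.95), and neither Pam nor Cyld was called by limma on cell means (0.751 and 0.864). Of 19 RANK and NF-κB genes, 2 were more positive in newborns and none more negative. Krt5 gave 3.14, with 988.1 ± 636.1 CPM in adult mTEClo, but 1.36 and no call without the 3 adult mTEClo batches of 8-week mice.

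**Figure D5:**
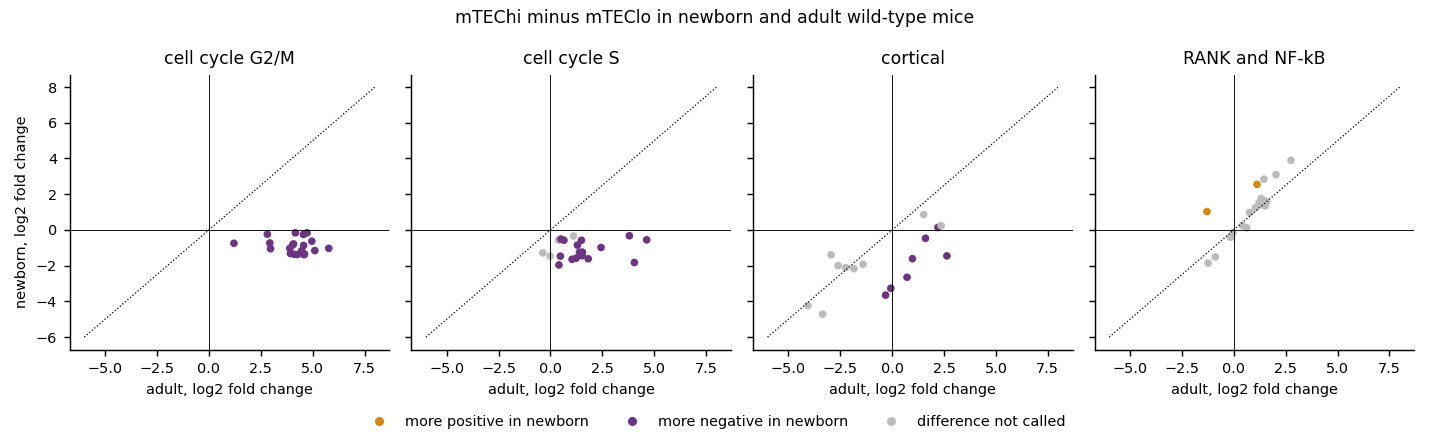
Log2 difference of mTEChi minus mTEClo in newborn mice (vertical) against the same difference in adult mice (horizontal) for G2/M, S phase, cortical and RANK and NF-κB genes. Each point is a gene, purple where the newborn difference was more negative, orange where it was more positive and grey where it was not called different. The G2/M genes lie far to the right of the diagonal and below 0 or near it in newborns, whereas most RANK and NF-κB genes lie near the diagonal.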

How the data were processed

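RamDA-seq libraries of single sorted cells were analysed from the table of whole-number counts per Ensembl gene that the authors deposited (48437 genes, 1980 cells, 0 columns without a sample). Per the study's methods, the authors trimmed reads with fastp 0.20.0, mapped them to mm10 with STAR 2.7.3a, removed alignments of a mapping quality under 5 with SAMtools 1.9 and duplicates with Picard 2.21.1, counted with HTSeq 0.11.2 without strand on GRCm38, and kept cells with over 200000 reads on over 8000 genes. Antisense and overlapping genes therefore cannot be separated. A second table of length-scaled values was not used. Names and positions came from GENCODE M21, promoters from RefSeq.

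The comparison held 295 cells (171 mTEChi and 124 mTEClo), beside 139 newborn cTEC and 977 adult WT mTEC. Counts were summed per sort and experimental batch. The labels give both sorts the same experimental batches, which pairs them. The test was the quasi-likelihood F test of edgeR 4.0.16 (R 4.3.3) with batch as a block, TMM scaling, filterByExpr, 4 residual degrees of freedom and Benjamini-Hochberg adjustment over 22312 genes, checked on simulated counts. Shares of cells and genes per cell were tested by exact sign flips of the 5 within-batch differences (scipy 1.17.1). The sort difference was compared between ages without a block. The study compared single cells with a rank test, which was not used because cells are not replicates. Alternatives with DESeq2 1.42.0, limma 3.58.1, other scaling and filters, and without each batch are given in the closing section. One of them, without cells holding 3 or more thymocyte markers, was added after the data were seen.

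The members, gene lists and tests were chosen with earlier results of these data known. Genes named are the 3 markers, in each direction the 12 called genes with the largest fold and the 8 with the smallest p (mean of at least 20 CPM and a read in at least 20% of cells of the higher sort, sorts not overlapping, no predicted gene), up to 6 members of each list by level and p, and the 6 genes of each direction with the smallest p between ages. Other members were picked by name for their known role. Some genes that this rule names are not reported here.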

Additional observations from a re-analysis of the deposited data

Results flagged for a closer look

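Dixon's test picked out a batch far from the other 4 in 15 groups of 5 batches, 9.87% of the groups tested, where chance alone gives about 1 in 20. In mTEChi, batch 17 was the highest for Fat3 (139.82 CPM), Jag2 (109.06 CPM), Ly75 (137.12 CPM) and Hmga2 (4.9744 CPM) and the lowest for Tnfrsf11b (211.03 CPM), and batch 16 was the lowest for H2-DMb2 (329.31 CPM). In mTEClo, batch 19 was the highest for Csn2 (97.008 CPM) and Krt77 (13.139 CPM), and batch 16 for Insm1 (65.329 CPM). Among shares of cells, batch 17 was the lowest for Fezf2 in mTEChi (81.818%) and in mTEClo (6.6667%) and for Cd80 in mTEClo (3.3333%), and the highest for Mki67 in mTEChi (54.545%). Batch 19 was the highest for Ccl21a in mTEClo (24.138%) and batch 20 the lowest for H2-Aa in mTEClo (96.552%). The sorts still did not overlap for Fat3, Jag2, Ly75 and Hmga2, which were lower in mTEChi in 5 of 5 batches. Fat3 and Hmga2 were named on the condition that their sorts did not overlap.

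The difference between the sorts was itself different between newborn and adult mice, by edgeR's test of the difference, for these genes named in the report (log2, newborn minus adult). It was more negative in newborns for Pole (-6.09), Top2a (-5.96), Dtl (-5.87), Mki67 (-5.64), Cdk1 (-5.59), Cdh4 (-4.42), Nqo1 (-4.24), Uhrf1 (-4.13), Rad54b (-3.90), Ly75 (-3.37), Psmb11 (-3.33), Prss16 (-3.21), Mcm5 (-2.82), Mcm6 (-2.37) and Baiap2 (-2.04). It was more positive for Gpx3 (4.83), Igf1 (4.46), Krt5 (3.14), Cadps (2.77), Tnfaip3 (2.32), Pam (1.15) and Cyld (1.02). In the adult mice no batch held both sorts and the sorts came from mice of different ages, so sort cannot be told apart from batch or mouse age there.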

How the results depend on the processing

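Of the genes called, 4033 were higher and 2414 lower in mTEChi. DESeq2 called 6742 higher, limma on the mean log2(CPM + 1) of cells called 2401 higher and 3801 lower, and without a fold limit 4187 were lower. Leaving out each batch in turn gave 3098 to 3697 higher and 1927 to 2359 lower. Of the main calls, 98.01% were also made by DESeq2 and 63.75% by limma. The median over all genes moved from 0.0555 to 0.3697 with DESeq2, 0.408 without the filter on low counts and -0.1358 with limma.

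The batches pair the sorts by their labels. Without the replicate block, 4110 genes were higher and 2433 lower. Of the genes named in the report, H2-Ab1 was then no longer called and Mki67, Gnat3 and Pole were called lower (-1.14, -5.13 and -1.28), and no other call of a gene named there changed.

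Between the ages, 2.877% of the 30278 genes tested were more positive in newborns and 3.032% more negative. As shares of the same 30278 genes, DESeq2 gave 5.159% and 4.868%, leaving out the adult mTEClo batches of 8-week mice gave 5.251% more positive, and limma gave 7.669% more negative, which moved the share of more positive calls from 48.69% to 22.44%. Leaving out each newborn batch gave 1.764% to 2.857% more positive and 1.998% to 2.606% more negative, with the lowest values without batch 18 (1.764% and 1.998%) and 1.853% more positive without batch 17. Of the main calls between the ages, 63.5% were also made without the adult mTEClo batches of 8-week mice and 51.65% by limma. The cause of these changes was not tested.

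By limma on cell means, the calls of Csn3, Stxbp5l, Pcsk2, Neurod4, Mx1, Alas2, Tnfaip3 and Pla2g4d were lost besides those given in the report (0.241 to 0.958), while Top2b, Chd4, Irf1, Oasl2, Krt18, Notch1 and Mki67 were called lower (-1.34 to -1.01) and Foxj1, Cxcl10 and Rag1 higher (1.17 to 1.36). DESeq2 called Rag1 higher (2.36). Called higher and lower were then 4 and 12 of the 25 immature and adhesion genes, 4 and 15 of the 28 Notch, Wnt, BMP and FGF genes, 3 and 0 of the 12 neuroendocrine genes, 3 and 3 of the 12 genes of Aire and its partners, 2 and 4 of the 22 Polycomb genes and 0 and 8 of the 20 G2/M genes.

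The shares of cells turned direction for 3 genes. The difference for Ccl21a was -4.788 percentage points, but 14.393 with 1 read as the limit and 5.023 without thinning. For Krt5 it was 10.509, but -1.395 with 1 read. For Trp63 it was -4.904, but 1.378 with 1 read and 1.11 without thinning. Genes carried by few cells, and mTEClo of batch 16 with 11 cells, are the least precise values.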
